A study of Rattus norvegicus with 6 samples.

Results

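Elastin, the enzymes that cross-link elastin and collagen, and helpers of collagen folding were measured in cardiac fibroblast cultures given pertussis toxin (PTX) or water. The genes are Eln, Fbn1, Lox, Plod1, Plod2, P4ha1 and Serpinh1, taken as all probe sets whose platform annotation names exactly 1 gene, that gene being one of these 7. The array held 9 such probe sets of 6 genes among its 8740 probe sets, and 6 of its 4736 named genes: 4 of Lox and 1 each of Eln, Plod1, Plod2, P4ha1 and Serpinh1. No probe set here carries the name of Fbn1, so this gene, which encodes the microfibril protein fibrillin-1, is not analysed here. The cells were primary cultures from ventricles of Sprague-Dawley rats aged 1 to 2 days. The control group received water and the other group PTX for 24 h, with 3 arrays each and 1 array per sample. PTX is a toxin of Bordetella pertussis that modifies the alpha subunits of Gi and Go, so that receptors can no longer signal through them; the sources used here give no dose. Nothing in the labels tells whether replicates came from different cell preparations, and p-values then cover no more than the spread of these samples, which may be technical.

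Elastic fibres consist of a core of elastin on a scaffold of fibrillin microfibrils, and they let the vessel wall and the heart recoil. Lysyl oxidase, outside the cell, oxidises lysines of tropoelastin and collagen so that the chains become covalently cross-linked. Collagen is prepared earlier, in the endoplasmic reticulum: lysyl hydroxylases (Plod genes) set the lysines that later form stable cross-links, prolyl 4-hydroxylase (P4ha1 with P4hb) stabilises the triple helix, and the chaperone Hsp47 (Serpinh1) holds procollagen until it leaves.

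The values are linear probe set signals from the Affymetrix software, and each array's median over all probe sets lay between 63.1 and 68.85. Probe sets bright enough to test numbered 5244, and all 9 of the members were among them. Changes are differences of log2(signal + 16), PTX minus control, tested with limma. Control replicate 1 stood apart, with a Pearson correlation with the other arrays of 0.952 to 0.960 across probe sets on the log2 scale. Values without it are therefore given as well. Probe sets named rc_AA892 to rc_AA894, of which that of Plod2 is one, shared a median change of 0.29 over the 420 tested (0.16 without control replicate 1), while the 2960 not named rc_ had a median of -0.10. All 11 fibroblast markers were measured, 5 of them among the brightest 5% of probe sets, but so were 8 of 9 cardiomyocyte markers, so these cultures also held abundant cardiomyocyte transcripts. The summed signal of the cardiomyocyte markers ran from 217696 to 271496 in the controls and from 190906 to 219278 with PTX. Of the 8 tested markers 7 were negative, and 0 passed an adjusted p of 0.05 with limma. Negative changes were also found on 2772 of all 5244 tested probe sets and on 1929 of the 2960 not named rc_. The latter share is no exact match, as the probe sets of Myh6, Actc1 and Actn2 have rc_ names. Actn2, the 1 positive marker, is among those named rc_AA799 to rc_AA800, whose median change was 0.56. The median change of the 8 tested cardiomyocyte markers was -0.21, and -0.10 without control replicate 1. The summed signal of the fibroblast markers ran from 79242 to 95560 and from 79579 to 85108, and that of 5 smooth muscle markers from 22708 to 24929 and from 22931 to 23855. The 3 endothelial markers measured summed to at most 163 on any array and the 5 macrophage markers to at most 691, with no marker of any list at 0. In RNA of whole cultures, fewer cells of a type and less RNA per cell cannot be told apart, and the part of cell makeup in the results was not tested.

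Elastin transcripts were lower with PTX and the signal of the lysyl hydroxylase Plod2 was higher, whereas the Lox probe sets and Serpinh1 overlapped between the groups. The Plod2 change shrank from 0.61 to 0.23 when each name class was shifted to a common median on every array. Under the same shift Eln went from -0.85 to -0.75. No member passed an adjusted p of 0.05 on all 6 arrays (0 of 9 with limma, against 0.0763% of all tested probe sets). At an unadjusted p under 0.05, 2 of the 9 passed, against 12.6% of all tested probe sets. Of these 2, Plod2 was higher, as were 7.97% of all and 98 of the 420 in its name class. Eln was lower, as were 4.61% of all and 177 of the 2960 not named rc_. Groups were fully separated on 4 of the 9, against 22.6% of all. Of these 4, Plod2 was higher (12% of all, and 128 of the 420 in its class). Eln, Plod1 and P4ha1 were lower (10.6% of all, and 403 of the 2960 in their class). Without control replicate 1 Eln and Plod2 passed an adjusted p of 0.05, 2 of 9 members against 2.21% of all tested probe sets. The same 2 passed with array quality weights, a setting chosen after seeing the data, against 1.54%. No member passed under any other alternative. The median change over the 9 probe sets was 0.13, against -0.02 over all 5244, but it was -0.03 without control replicate 1.

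**Figure D1:**
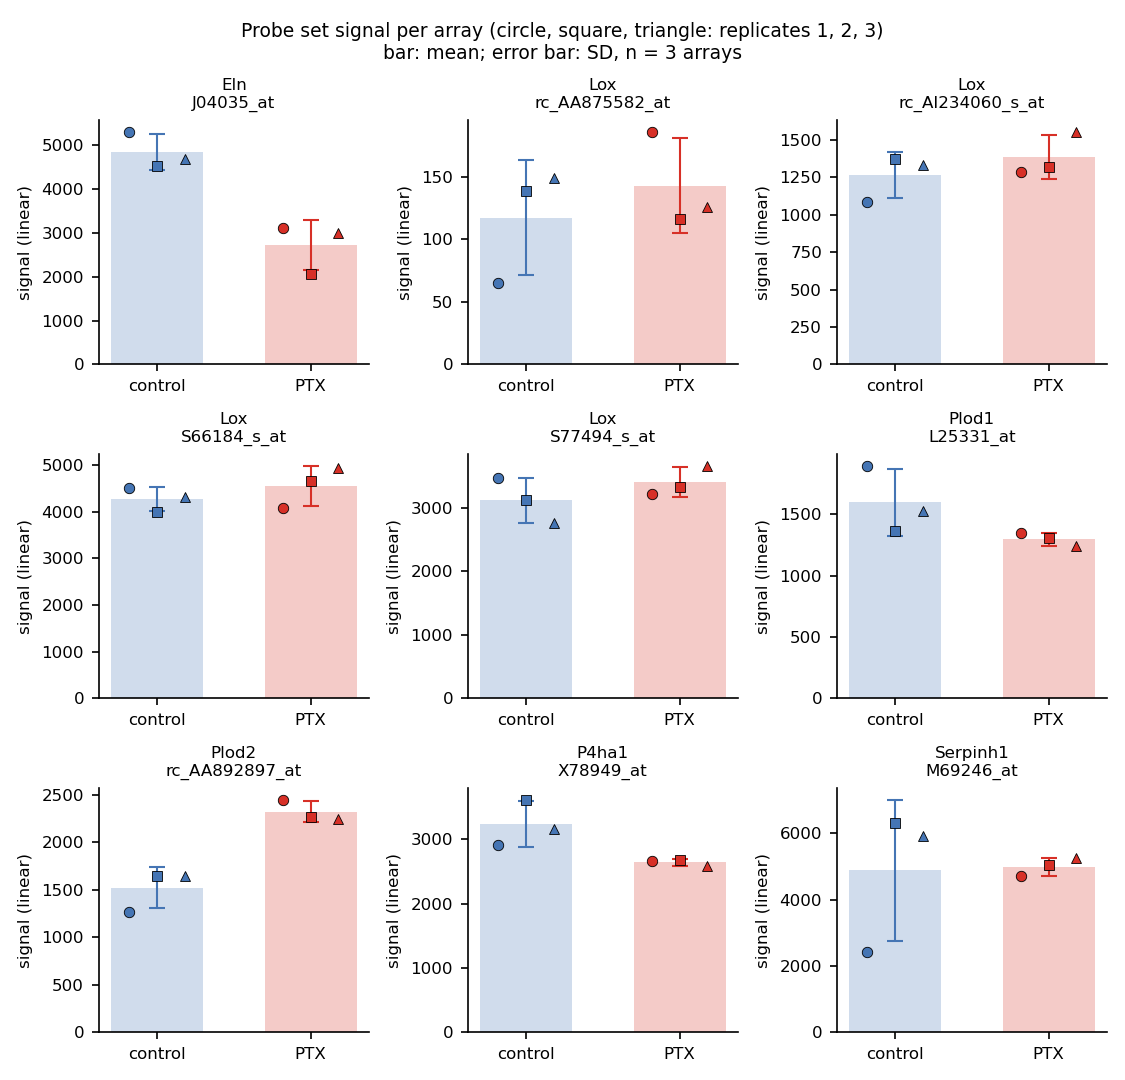
Linear signal of each of the 9 probe sets on the 3 control (blue) and 3 PTX (red) arrays, with bars at the mean and error bars of 1 SD (n = 3); circles, squares and triangles are replicates 1, 2 and 3, and each axis starts at 0 with its own scale. Eln lies at 4535 to 5318 in the controls and 2064 to 3118 with PTX, Plod2 at 1271 to 1648 and 2251 to 2451, and the control circle of Serpinh1 lies far below the other controls.

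Eln encodes tropoelastin, the soluble precursor of the elastic fibre core. Its probe set (J04035_at) read 5318, 4535 and 4688 on the 3 control arrays and 3118, 2064 and 2991 on the PTX arrays. All PTX arrays lay below all controls, and the lowest was PTX replicate 2. The means were 4847 ± 415 and 2724 ± 576 (SD, n = 3 each). The log2 change was -0.85 ± 0.18 (SE), 1.80-fold lower with PTX on the log2(signal + 16) scale, with a 95% interval of -1.26 to -0.44 and a limma adjusted p = 0.184 (unadjusted p = 0.00146). By p this was number 36 of the 5244 tested probe sets and number 10 of the 2772 that were negative.

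The lower elastin signal did not rest on the array that stood apart. On control replicate 1 Eln was brighter than the mean of the other controls by 0.21, and without that array the change was -0.78 ± 0.16 (SE). Eln then fell with an adjusted p = 0.0341, one of 18 probe sets that were lower at that threshold (0.343% of those tested). With array quality weights, an alternative added after seeing the data, it passed as well (log2 change -0.83, adjusted p = 0.0482). Leaving out PTX replicate 2 gave the smallest size, -0.66 (adjusted p = 0.638). Under the 19 alternatives tried the change stayed between -0.96 and -0.66, with adjusted p from 0.0341 to 0.638. In its own class of probe sets not named rc_, 0.676% had a more negative change. Beside it, the smooth muscle markers, another cell type known for elastin, had a median change of 0.04 (-0.04 without control replicate 1), and the fibroblast markers one of 0.06 (0.02). Single markers of both lists went either way around these medians. Of the fibroblast markers, Thy1 had -0.97 (-0.95 without control replicate 1), Lum 1.10 (0.74) and Postn 1.07 (0.79). The Postn probe set is, like that of Plod2, one of those named rc_AA892 to rc_AA894, whose median change was 0.29 (0.16). Thy1 and Lum passed without that array (limma adjusted p = 0.00771 and 0.00646), and Postn did not (0.0918). Of the smooth muscle markers, Acta2 had 0.59 (0.03) on the probe set used as marker and Tagln -0.35 (-0.19), and neither passed in either fit. Other tested probe sets of Acta2 were negative over all arrays, at -0.19 and -0.11, so the direction of Acta2 differed between its probe sets. The part of the fibroblast and smooth muscle markers in the Eln result was not tested.

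Lox, lysyl oxidase, was read by 4 probe sets of very different brightness, and on each of them the groups overlapped. The brightest (S66184_s_at) read 4495, 3981 and 4317 in the controls and 4083, 4656 and 4927 with PTX, a change of 0.09 with a 95% interval of -0.19 to 0.38 (limma adjusted p = 0.730). The next (S77494_s_at) read 3479, 3118 and 2766 against 3225, 3329.9 and 3668, a change of 0.13 (-0.17 to 0.43, adjusted p = 0.657). The third (rc_AI234060_s_at) read 1087, 1374 and 1333 against 1286, 1320.1 and 1555, a change of 0.13 (-0.21 to 0.48, adjusted p = 0.686). On these 3 the interval leaves room for signals from 0.866-fold to 1.39-fold of the control, so a change of 2-fold lies outside it. The dim probe set (rc_AA875582_at) read 64.8, 139 and 149 against 186, 116 and 126. Its change of 0.29 had an interval of -0.42 to 1.01 (adjusted p = 0.673). Its low value was that of control replicate 1, and without that array the change was -0.03, with the sign turned. The other 3 stayed positive without that array, at 0.03 to 0.21.

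**Figure D2:**
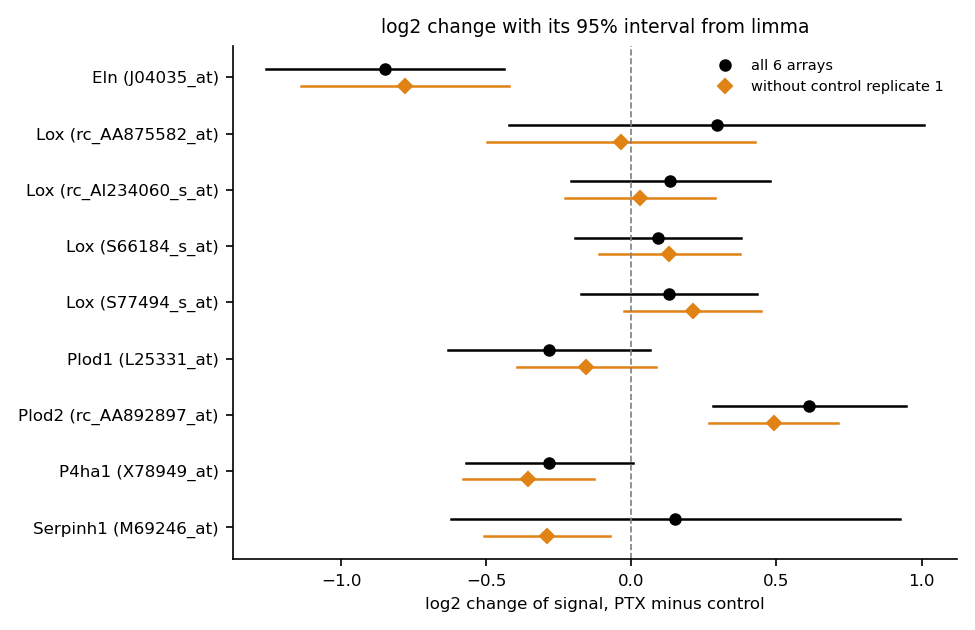
Difference of log2(signal + 16), PTX minus control, for the 9 probe sets (points) with the 95% interval from limma (lines), over all 6 arrays (black) and without control replicate 1 (orange). The intervals of Eln lie below 0 and those of Plod2 above 0 in both fits, those of the 4 Lox probe sets include 0 in both, and Serpinh1 moves from 0.15 to -0.29.

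Elastin was also set against its cross-linking enzyme within each array. The log2 ratio of the Eln signal to that of the brightest Lox probe set was 0.24, 0.19 and 0.12 in the controls and -0.39, -1.17 and -0.72 with PTX, with no overlap. The level of such a ratio depends on the probes, so only its difference between groups can be read. It was 0.94 lower with PTX (exact permutation p = 0.1, two-sided, the smallest p that 3 against 3 arrays can give) and 0.91 lower without control replicate 1. This difference restates the changes of Eln (-0.85) and of that Lox probe set (0.09), which were known before, and is no separate support for them.

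Plod2 encodes the lysyl hydroxylase that acts on the telopeptides of collagen, the ends at which stable cross-links form. Its probe set (rc_AA892897_at) read 1271, 1648 and 1647 in the controls and 2451, 2264 and 2251 with PTX. All PTX arrays lay above all controls, and control replicate 1 was the lowest. The means were 1522 ± 217 and 2322 ± 112 (SD, n = 3 each). The log2 change was 0.61 ± 0.14 (SE; 95% interval 0.28 to 0.95), 1.53-fold higher with PTX on the same scale, with a limma adjusted p = 0.218 (unadjusted p = 0.0028), number 66 of 5244 by p and number 51 of the 2472 that were positive. Without control replicate 1 it rose 1.40-fold, a log2 change of 0.49 ± 0.10 (SE), with an adjusted p = 0.0330, one of 98 higher probe sets (1.87% of those tested). With array quality weights it rose by 0.51 on the log2 scale (adjusted p = 0.0485).

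The name class of the Plod2 probe set moved with this result. Within the 420 tested probe sets named rc_AA892 to rc_AA894, 79.3% had a smaller change than Plod2, and without control replicate 1 86.2% had. When each name class was shifted to a common median on every array, Plod2 had a change of 0.23 (adjusted p = 0.505), and 0.25 with control replicate 1 also left out (adjusted p = 0.301). Scaling the classes thus took the Plod2 value from 0.61 to 0.23, further than leaving out the array did (0.49), and no call of Plod2 was made with the classes scaled. Eln, shifted the same way, had -0.75 (adjusted p = 0.261) and, without control replicate 1 as well, -0.73 (adjusted p = 0.0661). The third lysyl hydroxylase, Plod3, is read by 2 probe sets of the same class as Plod2. They had 678 ± 61.5 and 639 ± 42.2 on one (log2 change -0.08) and 1050 ± 85.4 and 1049 ± 39.1 on the other (0.00), with overlapping groups on both.

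**Figure D3:**
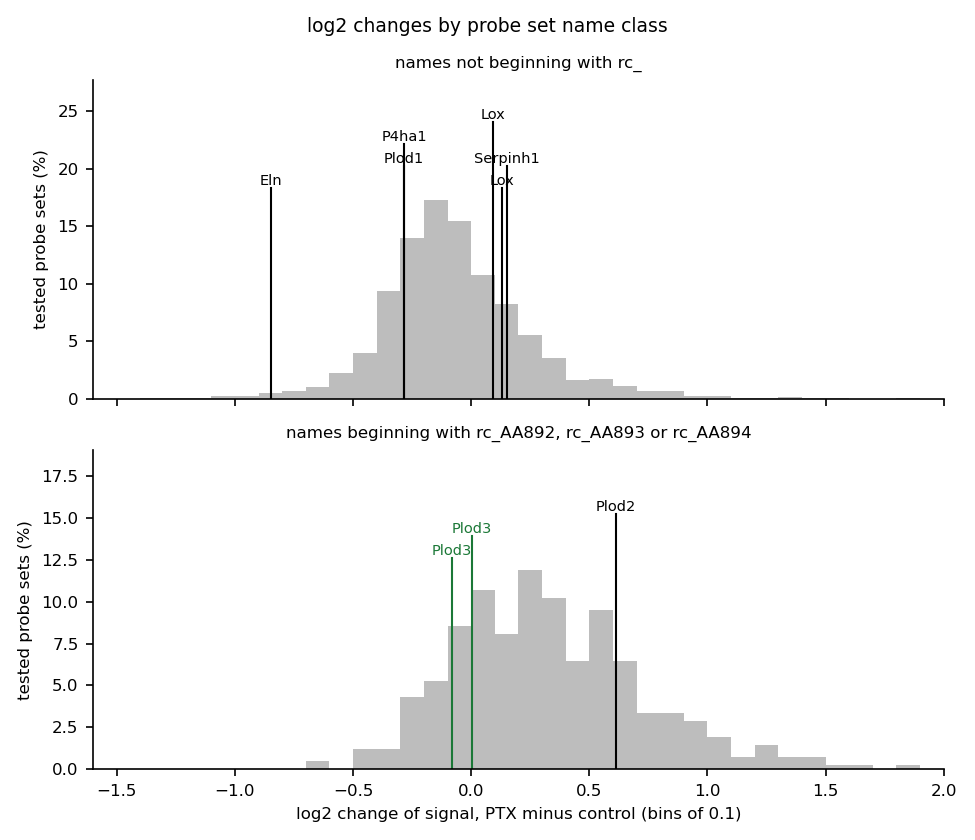
Share of tested probe sets (%) by log2 change in bins of 0.1, for the 2960 not named rc_ (top) and the 420 named rc_AA892 to rc_AA894 (bottom); black lines mark members and green lines the 2 Plod3 probe sets. Eln stands at -0.85 in the lower tail of its class, while Plod2 at 0.61 stands in the upper part of a class whose median is 0.29.

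Plod1, the lysyl hydroxylase that acts on the helical part of collagen, was slightly lower with PTX. It read 1895, 1366 and 1527 in the controls and 1344, 1307 and 1238 with PTX, so the highest PTX array lay just below the lowest control. The means were 1596 ± 272 and 1296 ± 53.6 (SD, n = 3 each), a log2 change of -0.28 with an interval of -0.63 to 0.06 (limma adjusted p = 0.450). The high value was that of control replicate 1. Its removal left a change of -0.15 (adjusted p = 0.542).

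The log2 ratio of Plod2 to Plod1 was -0.57, 0.27 and 0.11 in the controls and 0.86, 0.79 and 0.85 with PTX. The ratio was 0.90 higher with PTX (exact permutation p = 0.1, two-sided, again the smallest possible) and 0.64 higher without control replicate 1. The PTX arrays lay within 0.07 of each other, and the spread of the controls came mostly from replicate 1. This ratio sets a probe set of the rc_AA892 to rc_AA894 class against one outside it, and the difference of the 2 class medians is contained in it. Its difference between the groups restates the changes of Plod2 and Plod1 and is no separate support for them.

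**Figure D4:**
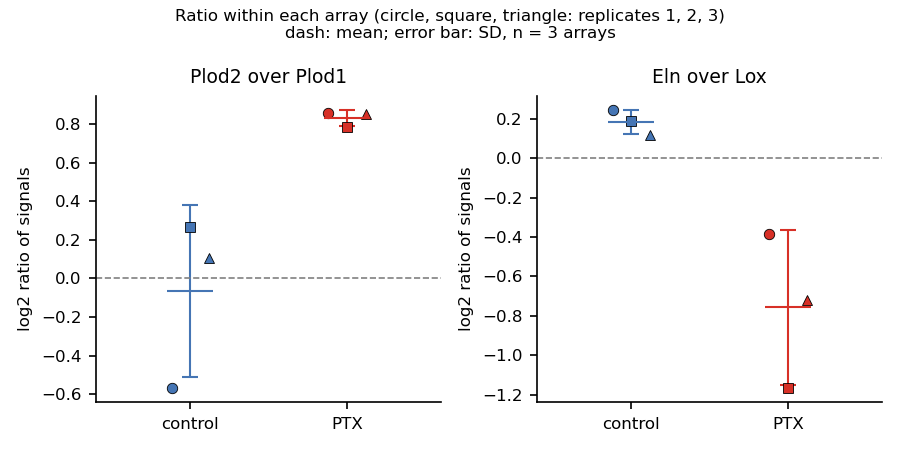
log2 ratio of 2 probe set signals within each array, Plod2 over Plod1 (left) and Eln over the brightest Lox probe set (right), for control (blue) and PTX (red) arrays; dashes are means, error bars 1 SD (n = 3), and circles, squares and triangles replicates 1, 2 and 3. Plod2 over Plod1 lies at 0.79 to 0.86 on the PTX arrays and at most at 0.27 on the controls, and Eln over Lox lies below 0 on all PTX arrays and above 0 on all controls.

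P4ha1, the catalytic subunit of prolyl 4-hydroxylase, was lower by a small amount. It read 2917, 3616 and 3163 in the controls and 2658, 2685 and 2585 with PTX, and the PTX arrays lay close together, below all controls. The means were 3232 ± 354 and 2643 ± 51.3 (SD, n = 3 each), a log2 change of -0.28 (95% interval -0.57 to 0.00, limma adjusted p = 0.406). Without control replicate 1 the change was -0.35, with an interval of -0.58 to -0.13 and an adjusted p = 0.123. Among tested probe sets not named rc_, 20.3% had a more negative change than P4ha1, and 9.53% without that array. With the name classes scaled, P4ha1 had -0.19 (adjusted p = 0.619), and -0.31 with control replicate 1 also left out (adjusted p = 0.233). Its partner subunit P4hb, protein disulphide isomerase, had changes of 0.00, -0.10 and 0.19 on 3 probe sets with overlapping groups. Without control replicate 1 these were 0.11, 0.03 and 0.29, so that the sign turned for the first and the second. The log2 ratio of P4ha1 to the brightest P4hb probe set was -1.28, -0.57 and -0.90 in the controls and -1.18, -1.14 and -1.27 with PTX. It was 0.28 lower with PTX (exact permutation p = 0.4, two-sided), and the overlap came from control replicate 1. Without that array it was 0.46 lower and the remaining groups did not overlap.

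Serpinh1, the collagen chaperone Hsp47, shows how far 1 array can set a value. It read 2427, 6314 and 5908 in the controls and 4706, 5042 and 5246 with PTX. Control replicate 1 was the lowest of all 6 arrays, and the other controls were the highest. Over all arrays the means were 4883 ± 2137 and 4998 ± 273 (SD, n = 3 each), a log2 change of 0.15 with an interval of -0.62 to 0.92 (limma adjusted p = 0.847). Without control replicate 1 the sign turned, to -0.29 ± 0.10 (SE), and the remaining groups did not overlap, but the change did not pass (interval -0.51 to -0.07, adjusted p = 0.188). On that array Serpinh1 stood at -1.33 on the log2 scale relative to the mean of the other controls, and 1.62% of the tested probe sets in its class (not named rc_) were lower still.

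Among further genes of elastic fibres, cross-linking and procollagen maturation, 11 of 36 listed genes had a probe set, 18 probe sets in all. The filter passed 16 of them, of 10 genes. None passed an adjusted p of 0.05 with limma (0 of 16, smallest adjusted p = 0.307), 2 were lower and 0 higher at an unadjusted p under 0.05 (4.61% and 7.97% of all tested probe sets), and the median change was -0.10, against -0.02 over all tested probe sets. Groups were fully separated on 5 of the 16, 1 higher and 4 lower, against 22.6% of all tested probe sets (12% higher and 10.6% lower).

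The elastic fibre genes of the list were negative on 4 of 6 tested probe sets. For comparison, 2772 of all 5244 tested probe sets were negative, and 1929 of the 2960 not named rc_. Of the 1489 with rc_ names outside rc_AA799 to rc_AA800 and rc_AA892 to rc_AA894, 713 were negative. The probe sets of Fbln5 and Ltbp1 are among those 1489. Fbln5, fibulin-5, which tethers elastin to cells and is needed to assemble elastic fibres, read 1239.7, 1242 and 1185 in the controls and 999, 914 and 979 with PTX. This was a change of -0.34 (unadjusted p = 0.0215, limma adjusted p = 0.337). Leaving out control replicate 1 gave -0.33 (adjusted p = 0.170). Efemp1, fibulin-3, read 1025, 961 and 764 against 653, 696 and 503 on its bright probe set, a change of -0.56 (unadjusted p = 0.0140, limma adjusted p = 0.307). Neither gene's groups overlapped there, but a dim second probe set of Efemp1 had 132 ± 38.9 and 142 ± 25.2 with overlapping groups (0.12, or -0.12 without control replicate 1). Ltbp1, a latent TGF-beta binding protein of microfibrils, had 263 ± 56.6 and 319 ± 44.0 (0.27, adjusted p = 0.531), with overlapping groups.

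Loxl1, the lysyl oxidase relative that acts on elastin, was read in opposite directions by 2 probe sets. One (rc_AA859805_at) read 3761, 3629 and 3679 in the controls and 3416, 3249 and 3346 with PTX, a change of -0.14 (limma adjusted p = 0.554). The other (rc_AA800844_s_at) read 5532, 4657 and 4261 against 6033, 6060.1 and 5608, a change of 0.30 (adjusted p = 0.403). The groups did not overlap on either. The second belongs to the probe sets named rc_AA799 and rc_AA800, whose median change was 0.56 (0.27 without control replicate 1). Its sign turned to -0.28 when the name classes were scaled to a common median, but was positive, at 0.13, when control replicate 1 was left out as well. It was brighter by 0.31 on control replicate 1 than on the other controls. The data therefore give no single direction for Loxl1. Of the procollagen genes, Pcolce, which enhances removal of the C-propeptide, had 4583 ± 875 and 3587 ± 142 with no overlap (-0.34, adjusted p = 0.418; -0.19 without control replicate 1). Ppib, cyclophilin B, a prolyl isomerase of procollagen folding, had 6203 ± 1192 and 5203 ± 548 on its brighter probe set (-0.24) and -0.11 on the other, with overlapping groups. Without control replicate 1 these changes were -0.10 and -0.26.

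The probe sets with the pattern most like that of Eln over the 6 arrays, among 4380 others with 1 gene symbol, were of Dnajb5 (Pearson r = 0.988), the Loxl1 probe set not in the rc_AA799 and rc_AA800 class (0.983) and Tbxa2r, the thromboxane A2 receptor (0.973). The sizes differed: Dnajb5 had a change of -0.17, Loxl1 of -0.14 and Tbxa2r of -0.50. For the brightest Lox probe set they were of Cd14 (0.988), P4hb (0.972) and the serotonin receptor Htr2a (0.955), with changes of 0.15, 0.19 and 0.42. Htr2a was dim, with signals from 17.4 to 53.1. The P4hb probe set was the dimmest of that gene, and the brighter ones had changes of -0.003 and -0.10. These correlations are descriptions over 6 arrays that also share the difference between the groups, and 66 probe sets had an r over 0.9 with Eln and 14 with Lox.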

How the data were processed

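Per the submitters' processing notes, the authors processed the arrays with GCOS, for which the sources used here give neither version nor scaling target. The deposited columns hold linear intensities, 1 column per array, with 2% trimmed means of 493 to 495, and they were used without further scaling. Of 8740 probe sets, 7006 had 1 gene symbol in the platform annotation, 308 several and 1426 none; 6985 symbols were updated by Entrez ID with a RefSeq table of the assembly GRCr8, used for names only.

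Probe sets under the 40th percentile of the mean log2(signal + 16) over 6 arrays were left out. The others were fitted with limma 3.58.1 in R 4.3.3 (lmFit, eBayes with a trend), two-sided, with Benjamini-Hochberg adjustment over all 5244 and a threshold of 0.05. The fit was tested on simulated data with independent normal noise, without an outlying array or a shift of any name class. That test therefore says nothing on how control replicate 1 or the name classes affect the calls. Members, lists and tests were chosen with earlier results of these data known. Named are all member probe sets, the 6 further probe sets with the smallest p, and 3 probe sets most correlated with Eln and with Lox; Plod3, P4hb, 5 cell type markers and the second probe sets of named genes were added after their values were seen. Alternatives covered pseudocount, filter, scaling, name classes, variance model, replicate block, array weights and each array left out. The number of arrays limits the precision.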

Additional observations from a re-analysis of the deposited data

How the results depend on the processing

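Over all tested probe sets limma called 4 on 6 arrays. It called 2 with a pseudocount of 1, 7 with 64, 2 after quantile normalization, 8 with name classes scaled, 9 with robust variances, 81 with array quality weights, and 49 with name classes scaled and control replicate 1 left out. It called 0 with eBayes without a trend (615 at an unadjusted p under 0.05) and 0 with the replicate number as a block (552). Leaving out 1 array gave 0 to 116 calls, the most without control replicate 1 and 29 without control replicate 3. Of the 9 member probe sets 0 to 2 were called with 1 array left out and 2 with array quality weights, in both cases Eln and Plod2; 0 were called under the other alternatives. With 1 array left out, Serpinh1 ranged from -0.29 to 0.40 and the dim Lox probe set from -0.034 to 0.48. Serpinh1 turned to -0.29 without control replicate 1, to -0.20 with array quality weights and to -0.24 with name classes scaled and that array left out. The dim Lox probe set turned to -0.034 and -0.036 under the first and last of these, and the Loxl1 probe set of the rc_AA800 names to -0.28 with name classes scaled. Why control replicate 1 differs was not tested. Same-numbered control and PTX arrays did not deviate together (correlations of -0.09, -0.11 and -0.01), so the numbers were not taken as pairs; with the replicate block Eln and Plod2 both had an adjusted p = 0.385. The weights and the joint setting were chosen after seeing the data. Signals carry no detection calls here, which limits the dim Lox probe set most.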

Other observations

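On control replicate 1, helpers of collagen folding in the endoplasmic reticulum did not deviate together. Relative to the mean of the other controls on the log2 scale, Serpinh1 was at -1.33, the 3 P4hb probe sets were at 0.31, 0.34 and 0.38, and P4ha1 was at -0.21. The Plod3 probe sets were at -0.09 and -0.05, and Ppib was at -0.47 on one probe set and 0.44 on the other. Each was also placed among the tested probe sets of its own name class. Of these, 1.62% were lower than Serpinh1, 21.0% lower than P4ha1, and 64.1%, 66.7% and 71.2% lower than the P4hb probe sets. For Plod3 the shares were 62.9% and 64.8%, and for Ppib 11.0% and 85.8%.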
